A study of Mus musculus with 57 samples.

Results

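Lithium was compared with vehicle in the prefrontal cortex of wild-type (WT) mice. The comparison holds 17 of the series' 57 libraries, chosen by the genotype and drug in the sample titles: 9 from WT mice given lithium (4 females and 5 males) and 8 from WT mice given vehicle (4 females and 4 males). The mice were of the strain C57BL/6N and were sampled at postnatal day 25. Lithium or vehicle had reached the pups from day 3 to day 24 in the milk of the treated mother. The dose, the make-up of the vehicle and the litter of each pup are not given in the labels. Since littermates cannot be recognised, the p-values below measure only the spread between these samples, and litter and drug cannot be told apart. The rest of the series holds WT mice given fluoxetine and mice heterozygous for Shank2 (HT) under the same 3 treatments, of which WT fluoxetine (10 libraries), HT lithium (10) and HT vehicle (10) are used below.

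Lithium is a mood stabilizer with several known enzyme targets. It inhibits glycogen synthase kinase 3 (GSK3), which marks beta-catenin for breakdown in the Wnt pathway, and the phosphatases that recycle inositol and clear 3'-phosphoadenosine 5'-phosphate. In neurons these enzymes stand upstream of transcription, phosphoinositide signalling and the trafficking of receptors and channels.

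The deposited values are normalized counts per gene, called normalized values here. Their totals ran from 30.4 to 32.9 M (1e6) per library, and the number of genes above zero from 21509 to 23126. A rough estimate of depth is 25.5 to 36.4 M reads, since single reads could not be recovered from the table. Shank2, the gene targeted in HT mice, ran from 3877 to 5006 in the 30 HT libraries and from 6762 to 11791 in the 27 WT libraries, so no library went against its genotype label. In the comparison itself Shank2 had a log2 change of 0.14 ± 0.065 (adjusted p = 0.162). All 23 cortical excitatory neuron markers of the list used were above the minimum level in these libraries, and none was at 0. Their summed value was 102465 to 111070 under lithium and 84867 to 108777 under vehicle.

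One library stood apart. WT vehicle male 2 had the lowest median correlation with the other libraries, 0.968 where the 17 libraries had a median of 0.985, and the fewest genes above zero. Its myelinating oligodendrocyte markers summed to the highest value of the vehicle group (220274) and its astrocyte markers to the lowest (150128). Long transcripts were also lowest in it relative to short ones, as the length trend below shows. Each main count is therefore given with and without it.

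Many genes differed by small amounts between the lithium and the vehicle libraries. Of 16659 genes tested with limma on log2(value + 1), 1421 were called at an adjusted p under 0.05, which is 8.53% of them. The 908 genes that rose made up 5.45% and the 513 that fell 3.08%. The median size of the log2 change among called genes was 0.23, 1326 of them changed by less than 0.5 and 9 by more than 1. Without WT vehicle male 2 the count was 909 (5.46%; 565 rose, 3.39%, and 344 fell, 2.06%), and 741 of the 1421 genes were among them. All 1421 kept their sign without that library, with a median size of 0.195. They were chosen in a fit holding the remaining libraries too, so kept signs were likely in advance. The count was also lower by more than 1.5 times without WT lithium female 4 (796), vehicle female 3 (893), lithium male 3 (913) or lithium female 3 (937). With the 4 groups compared alone in the fit it was 204. When each of the 17 libraries was left out in turn, 526 genes were called every time (349 higher and 177 lower). Of these, 33 were also called under the 11 other planned settings, 22 higher and 11 lower, Pnck, Hpca, Mest, Adcy1 and Frat2 among them. Groups did not overlap for 48 genes, or 0.288% of those tested. One of the settings added each library's trend with transcript length as a term in the fit, called the length term, which is described with the length results.

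**Figure D1:**
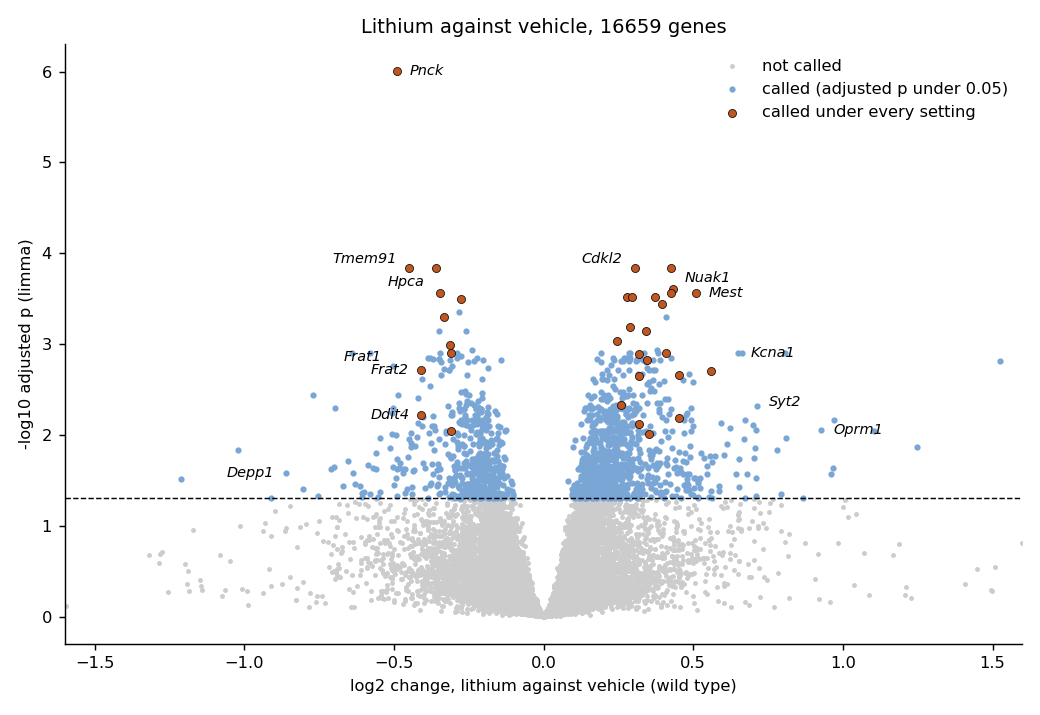
Each point is 1 of the genes tested in WT, with the log2 change under lithium on the x axis and the negative log10 of the adjusted p on the y axis. The dashed line is the threshold, grey points are genes not called, blue points are called, and orange points are the 33 genes called under every setting. Pnck has the smallest adjusted p, most called genes lie within 0.5 of zero, and 19 genes (4 of them called) lie beyond the axis limit of 1.6.

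The known targets of lithium come first. Of 9 measured genes for enzymes inhibited by lithium, 2 rose and none fell (22.2%, against 8.53% of all genes tested). Their median log2 change was 0.07 against -0.01 for all genes tested. Gsk3b (GSK3 beta; chromosome 16, 38089001 to 38246084 of GRCm38, as for all gene positions) ran from 7367 to 8671 (median 7971) under lithium and from 4463 to 7739.8 (median 7064) under vehicle. The groups overlapped, and the lowest value was that of WT vehicle male 2, without which vehicle ran 5977 to 7739.8. Its log2 change was 0.27 ± 0.06 (adjusted p = 0.0037), and 0.21 without that library (adjusted p = 0.0175). Impad1, the Golgi phosphatase of 3'-phosphoadenosine 5'-phosphate, rose by 0.14 ± 0.039 (adjusted p = 0.0168), from vehicle values of 3535 to 4549.8 (median 4123) to lithium values of 4360.2 to 4755 (median 4415). Impad1 was not called without WT vehicle female 3 (log2 change 0.12, adjusted p = 0.0549). Both changes were smaller with the length term, at 0.10 for Gsk3b (adjusted p = 0.248) and 0.07 for Impad1 (adjusted p = 0.399).

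The other target enzymes were not called. Gsk3a, the second GSK3, had a log2 change of -0.01 ± 0.046 and the inositol monophosphatases Impa1 and Impa2 had 0.03 ± 0.047 and 0.15 ± 0.28. Inpp1, which removes the 1-phosphate of inositol bisphosphate, had 0.16 ± 0.10. Bpnt1, the cytosolic phosphatase of 3'-phosphoadenosine 5'-phosphate, had 0.04 ± 0.04, and the phosphoglucomutases Pgm1 and Pgm2 had -0.02 ± 0.037 and 0.07 ± 0.08. Impa2 varied most between libraries, from 94.5 to 399.8 (median 180.3) under lithium and from 89.5 to 280.2 (median 172) under vehicle, so its precision is low. The signs for Gsk3a, Impa1, Impa2 and Pgm1 were not stable across settings. Among 35 genes of inositol and phosphoinositide metabolism, 5 rose and none fell (14.3%, against 8.53% of all genes tested), with a median of 0.03. They were the phospholipase C gene Plcb1 (0.17, named after its value was seen), the protein kinases C Prkca (0.17) and Prkce (0.16), the lipid kinase Pip5k1c (0.12) and the inositol pyrophosphate kinase Ppip5k1 (0.13). When WT vehicle male 2 was left out, 1 of the 35 was called, Pip5k1c (2.86%, below the 5.46% of all genes tested).

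In the Wnt pathway the called genes that fell were those for beta-catenin and for both FRAT proteins, which bind GSK3 and keep it from axin. Of 33 measured Wnt and beta-catenin components, 3 rose and 3 fell (18.2%, against 8.53% of all genes tested), with a median log2 change of -0.03. The counts were 2 and 5 when WT vehicle male 2 was left out (21.2%, against 5.46%). With the length term 1 rose and 1 fell, where 0.402% of all genes tested were called. With that term and without WT vehicle male 2, 1 rose and 3 fell, where 1.78% were called. The 3 that rose with all libraries in the main fit were Fzd3 and, named after their values were seen, Wnt10a (0.37) and Pygo1 (0.16). Of 17 Wnt target genes, 0 were called by limma (3 at an unadjusted p under 0.05), with a median of -0.05. Without WT vehicle male 2 or with the length term 0 were called, where 5.46 and 0.402% of all genes tested were.

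Frat1 (chromosome 19, 41829970 to 41832583) ran from 134 to 246 (median 211) under lithium and from 223 to 346 (median 294) under vehicle. Of the 9 lithium libraries 6 lay below every vehicle library, and the others reached into the lower vehicle range. The log2 change was -0.50 ± 0.10 (adjusted p = 0.00175). Frat2 (chromosome 19, 41845972 to 41848132), its neighbour on the chromosome, ran from 139.7 to 202 (median 155) under lithium and from 182 to 262 (median 205) under vehicle, and 8 of 9 lithium libraries lay below every vehicle library, all but WT lithium male 1. It had a log2 change of -0.41 (SE 0.084, adjusted p = 0.00193) and passed under every setting. Ctnnb1 (beta-catenin; chromosome 9, 120929216 to 120960507) ran from 17407 to 20528 (median 18156) under lithium and from 18379 to 25789 (median 21564) under vehicle. Of 9 lithium libraries 5 lay below every vehicle library, and the log2 change was -0.22 ± 0.044 (adjusted p = 0.00143). With the length term Ctnnb1 and Frat1 were no longer called (log2 change -0.15, adjusted p = 0.0812, and -0.41, adjusted p = 0.0639). Fzd3, a Wnt receptor, rose by 0.23 ± 0.056 (adjusted p = 0.00713), and by 0.09 with the length term (adjusted p = 0.349).

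The stretches before the starts of Frat1 and Frat2 are shown because both genes fell and lie 18162 bases apart on opposite strands. Sequences are from RefSeq on GRCm38.p6, the 250 bases before each start, with the match to TGACGT on the other strand (ACGTCA) in capitals. It stands 9 bases before the start of Frat1 and 13 before that of Frat2. Frat1 is read from chr19:41829720-41829969 on the plus strand and Frat2 from chr19:41848133-41848382 on the minus strand.

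Frat1: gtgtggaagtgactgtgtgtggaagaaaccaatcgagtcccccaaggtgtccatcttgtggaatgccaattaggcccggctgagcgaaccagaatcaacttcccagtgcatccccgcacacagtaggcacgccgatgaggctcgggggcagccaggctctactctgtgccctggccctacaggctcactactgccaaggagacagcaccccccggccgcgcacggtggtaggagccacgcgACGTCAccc

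Frat2: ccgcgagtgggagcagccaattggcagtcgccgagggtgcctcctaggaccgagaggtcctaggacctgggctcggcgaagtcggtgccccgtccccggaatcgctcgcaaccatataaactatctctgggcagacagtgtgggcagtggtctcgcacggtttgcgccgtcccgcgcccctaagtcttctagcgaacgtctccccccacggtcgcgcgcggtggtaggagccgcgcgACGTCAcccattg

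A run of 63 identical bases spans the start of both genes, beginning 13 bases before the start of Frat1 and 17 before that of Frat2. Its first 30 bases hold TGACGT and GTAAACA on the other strand, shown in capitals:

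Shared run: cgcgACGTCAcccatTGTTTACaaatcaac

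Of 20417 windows from 250 bases before to 50 after a gene's start, 2 held those 30 bases, namely those of Frat1 and Frat2. TGACGT, the core of the site bound by CREB and ATF proteins, stood in 8.43% of the windows. GTAAACA, a forkhead (FOXO) motif, stood in 3.14%, and 0.279% held both. The full site TGACGTCA (2.23% of windows), the TCF motif ATCAAAG (3.36%) and the E-box CACGTG (7.67%) were in neither window. These matches describe letters only, and binding was not measured. Frat1 and Frat2 also share part of their transcripts: 8.44 and 8.31% of their 31-base words occur in other genes, each in the other among them, so some reads may be split between the pair.

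The gene with the smallest adjusted p was a kinase of calcium signalling. Pnck (pregnancy up-regulated calmodulin kinase, a brain-enriched member of the calcium/calmodulin kinase I family; chromosome X, 73655994 to 73660117) ran from 1096 to 1385 (median 1191) under lithium and from 1528 to 1984 (median 1727) under vehicle. Every lithium library lay below every vehicle library. Its log2 change was -0.49 ± 0.059 with an adjusted p of 9.9e-07, and -0.41 with the length term (adjusted p = 0.000543).

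Hpca (hippocalcin, a neuronal calcium sensor; chromosome 4, 129111570 to 129122036) ran from 8255 to 9972 (median 9266) under lithium and from 8946 to 14840.2 (median 12029.8) under vehicle. WT vehicle female 1 fell inside the lithium range, all other vehicle libraries lay above it, and the highest value was that of WT vehicle male 2. The log2 change of Hpca was -0.36 ± 0.056 (adjusted p = 0.000146) and without that library -0.32 (adjusted p = 0.000929). Tmem91, a small membrane protein, had a log2 change of -0.45 (SE 0.07, adjusted p = 0.000146). Ahi1 (jouberin, a protein of the ciliary base that is mutated in Joubert syndrome) ran from 3747 to 5136 (median 4418) under lithium and from 4946 to 6077 (median 5699) under vehicle, a log2 change of -0.35 ± 0.057 (adjusted p = 0.000271), with 7 of 9 lithium libraries below every vehicle library. Fam173a, a mitochondrial lysine methyltransferase, ran from 1011 to 1107 (median 1032) under lithium and from 1129.6 to 1629 (median 1195) under vehicle without overlap, a log2 change of -0.28 ± 0.046 (adjusted p = 0.000318). For Fam173a, 21.0% of 31-base words also belong to other genes, one of them overlapping it on the same strand, so its count is uncertain.

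The rises that passed under every setting included an imprinted gene and enzymes of cAMP and kinase signalling. Mest (an imprinted gene expressed from the paternal copy; chromosome 6, 30723547 to 30748465) ran from 1452 to 1824 (median 1739) under lithium and from 943 to 1328 (median 1187) under vehicle, with no overlap, and rose by 0.51 ± 0.084 (adjusted p = 0.000271). Adcy1 (the adenylyl cyclase stimulated by calcium and calmodulin; chromosome 11, 7063489 to 7178506) ran from 28500.5 to 33550.3 (median 30789) under lithium and from 15549.7 to 27522 (median 24125) under vehicle. The lowest of these was WT vehicle male 2, but the other vehicle libraries, at 20403 to 27522, also lay below all lithium libraries. Adcy1 rose by 0.42 ± 0.069 (adjusted p = 0.000271), or by 0.34 without that library (adjusted p = 0.000929).

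Nuak1 (an AMPK-related kinase of axon branching; chromosome 10, 84370905 to 84440597) ran from 2999 to 4014 (median 3552) under lithium and from 2279 to 2946 (median 2671) under vehicle, again without overlap, and rose by 0.43 ± 0.069 (adjusted p = 0.000245). Cdkl2, a cyclin-dependent-kinase-like kinase of the brain, ran from 1537 to 1856 (median 1718) under lithium and from 1212 to 1525 (median 1362) under vehicle and rose by 0.30 ± 0.047 (adjusted p = 0.000146). Mta3, a subunit of the NuRD chromatin complex, rose by 0.30 ± 0.049 (adjusted p = 0.0003). Genes on the opposite strand overlap the spans of Hpca (Tmem54), Tmem91 (Exosc5), Ahi1 (Gm10826), Fam173a (Ccdc78), Mest (Copg2) and Ctnnb1 (Ulk4). Whether exons overlap was not tested, and whether counting used the strand is not stated. Some reads of these partners may therefore be counted in theirs.

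**Figure D2:**
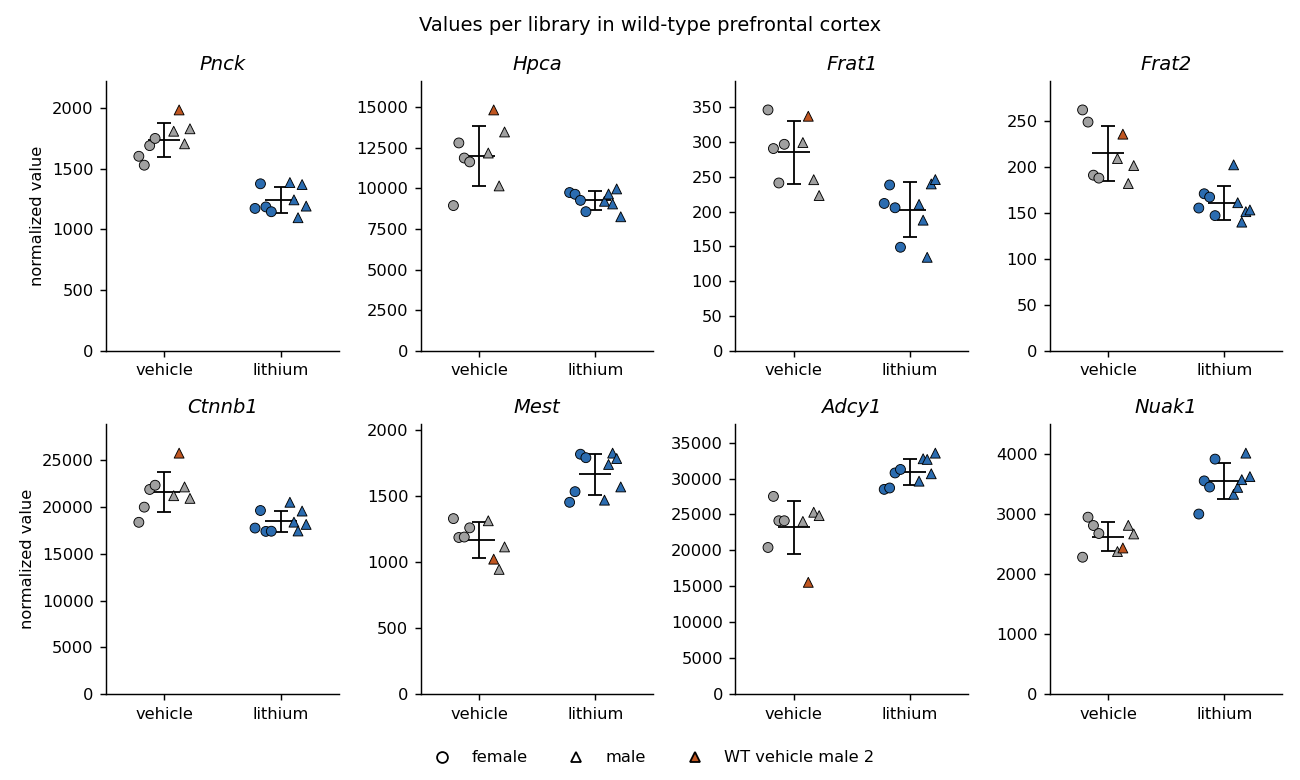
Normalized values (y axis, from 0) of 8 genes in the 8 vehicle and 9 lithium libraries of WT mice. Circles are females, triangles males, grey is vehicle, blue lithium and orange WT vehicle male 2, and the bar and whiskers are the mean and SD over all libraries of a group. Pnck, Mest, Adcy1 and Nuak1 do not overlap between the groups, and Hpca, Frat1, Frat2 and Ctnnb1 do.

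Among genes known as targets of glucocorticoids or FOXO factors, most of the called ones fell. Of 30 measured, 5 fell and 1 rose (20%, against 8.53% of all genes tested), with a median log2 change of -0.16. Without WT vehicle male 2 the counts were 4 and 1 (16.7%, against 5.46%). With the length term Ddit4 was the 1 call left, where 0.402% of all genes tested were called, and the median was -0.04. With that term and without WT vehicle male 2, 3 of the 30 fell and 1 rose, where 1.78% of all genes tested were called. Ddit4 (REDD1, an inhibitor of mTORC1) ran from 984 to 1733 (median 1326) under lithium and from 1441 to 2086 (median 1736) under vehicle. Of 9 lithium libraries 7 lay below every vehicle library, and the log2 change was -0.41 ± 0.096 (adjusted p = 0.00603), which passed under every setting. Cited2, a coregulator of CBP and p300, ran from 640.4 to 823 (median 688) under lithium and from 741 to 1175 (median 881) under vehicle, a log2 change of -0.37 ± 0.087 (adjusted p = 0.0062).

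Depp1 (an autophagy regulator induced by FOXO; its gene overlaps Rassf4 on the other strand) ran from 16.3 to 58.4 (median 32.2) under lithium and from 40.4 to 103 (median 63.8) under vehicle, a log2 change of -0.86 ± 0.25 (adjusted p = 0.026). Depp1 was not called without any 1 of WT lithium female 2, lithium male 3, vehicle female 2, vehicle female 3 or vehicle male 4 (adjusted p from 0.0505 to 0.0818, log2 change from -0.83 to -0.67). Of the metallothioneins, zinc-binding proteins, Mt1 had a log2 change of -0.44 (adjusted p = 0.00965) and Mt2, named after its value was seen, of -0.46 (adjusted p = 0.0441). Zbtb16 (PLZF, a zinc finger repressor that glucocorticoids induce) went the other way. It ran from 976 to 1879.7 (median 1515) under lithium and from 371 to 1588 (median 907) under vehicle, where the lowest value was that of WT vehicle male 2. It rose by 0.70 ± 0.17 (adjusted p = 0.00775), or by 0.52 without that library (adjusted p = 0.0343).

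Genes of the ERK cascade and its feedback were called in both directions. Of 19 measured, 4 rose and 3 fell (36.8%, against 8.53% of all genes tested), with a median of 0.09. The 3 that fell were kinases of the cascade. Mapk3 (ERK1) ran from 3524 to 4360.4 (median 3743) under lithium and from 3873 to 5317 (median 4669) under vehicle, a log2 change of -0.26 ± 0.061 (adjusted p = 0.00599). Of 9 lithium libraries 7 lay below every vehicle library. Map2k2 (MEK2) had -0.21 ± 0.058 (adjusted p = 0.0186) and Map2k1 (MEK1), named after its value was seen, -0.14 (adjusted p = 0.0219). Spred2, an inhibitor of RAF activation, ran from 3502 to 4165 (median 3783) under lithium and from 2516 to 3500.3 (median 3144) under vehicle without overlap, and rose by 0.32 ± 0.065 (adjusted p = 0.00212). Spry4, a Sprouty inhibitor induced by ERK, rose by 0.34 ± 0.096 (adjusted p = 0.0208), but was not called without WT lithium female 4, lithium male 3 or vehicle male 2 (adjusted p from 0.0506 to 0.0648, log2 change from 0.30 to 0.31). The kinase Braf (0.17) and the adaptor Shc3 (0.45), both named after their values were seen, rose as well. In the fit without WT vehicle male 2, 1 member rose and 2 fell (15.8%, against 5.46% of all genes tested). With the length term none of the 19 was called, where 0.402% of all genes tested were. With that term and without WT vehicle male 2, 1 of them rose and 0 fell, where 1.78% of all genes tested were called.

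Of the pathway lists, the cytosolic ribosomal protein genes held the most falls. Of 79 measured, 51 fell and none rose (64.6%, against 8.53% of all genes tested). All 79 had a negative log2 change, with a median of -0.22. Leaving out WT vehicle male 2, 30 fell (38.0%, against 5.46%) and the median was -0.17. Rpl17, of the large subunit, ran from 3367 to 4049.6 (median 3561) under lithium and from 4176 to 5633 (median 4308) under vehicle. WT vehicle male 2 was the highest, and without it vehicle still lay above all lithium libraries, at 4176 to 4571. Rpl17 had a log2 change of -0.28 ± 0.049 (adjusted p = 0.000444). Rpl13a (chromosome 7, 45125558 to 45128761) ran from 3769 to 4799.8 (median 4322) under lithium and from 4773 to 7665 (median 5268) under vehicle, overlapping narrowly, a log2 change of -0.35 ± 0.063 (adjusted p = 0.000714). Rps14 and Rps18 had -0.35 ± 0.065 and -0.29 ± 0.055 (adjusted p = 0.00124 and 0.00124). Such genes often have processed pseudogenes, and 46.1% of the 31-base words of Rpl17 and 28.3% of those of Rpl13a occur in other genes, so their counts are uncertain.

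Ribosomal protein messenger RNAs are known for a start made of pyrimidines, through which their translation is regulated, and the group is shown at its start for that reason. Of the 79 genes, 58 had a RefSeq window, and 13 of them (22.4%) began at the annotated first base with a C followed by at least 4 pyrimidines, against 2.35% of all 20417 genes. A C followed by 7 pyrimidines, within the window from 10 bases before to 20 after the start, was found in 36.2% of the 58 against 8.84% of all. The bases from 10 before to 20 after the start are given for Rps18 (chr17:33955646-33955675, minus strand), which met the first criterion, and Rpl13a (chr7:45128726-45128755, minus strand), which did not, with capitals marking the C and the unbroken pyrimidines after it, counted from the annotated first base in Rps18 and from the first match to the second criterion in Rpl13a.

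Rps18: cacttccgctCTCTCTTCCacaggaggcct

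Rpl13a: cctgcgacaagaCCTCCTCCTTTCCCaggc

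Other short housekeeping genes were called at shares from 0 to 11.8%, where 8.53% of all genes were called. Of 76 nuclear genes of oxidative phosphorylation 3 fell (Ndufb4, Ndufs4 and Ndufa7, all of complex I, -0.28, -0.22 and -0.20) and none rose, with a median of -0.06. Without WT vehicle male 2 this list had 4 called higher and 1 lower (6.58%, against 5.46% of all genes tested), with a median of 0.01. Of 31 proteasome subunit genes 3 fell (Psmb3, Psmb4 and Psmb6) with a median of -0.06, none of them called without that library, and of 17 Sm and LSm genes 2 fell (Lsm7, -0.31, and Snrpd2, -0.23) with a median of -0.10. With the length term 0 members of these lists were called, where 0.402% of all genes tested were. The oxidative phosphorylation genes then had a median of 0.08, with 68 positive and 8 negative changes. With the term and without WT vehicle male 2, 5 of them were called higher and 0 lower, where 0.996 and 0.78% of all genes tested were. Of the 13 mitochondrially encoded genes 0 were called by limma (1 at an unadjusted p under 0.05), with a median of -0.04.

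Among the listed genes of synapses and ion channels, those called with all 17 libraries rose. Kcnip2, a channel subunit on none of these lists and named after its value was seen, fell (-0.33). Of 41 voltage-gated channel genes, 14 rose and none fell, with a median log2 change of 0.16. Of 37 presynaptic vesicle genes 13 rose (median 0.11), of 48 glutamatergic postsynapse genes 10 rose (median 0.08) and of 21 GABAergic synapse genes 4 rose (median 0.07), with no falls in these 3 lists. The shares called were 34.1% (channels), 35.1% (presynaptic) and 20.8% (postsynaptic), against 8.53% of all genes tested, and the GABAergic share was also higher. Without WT vehicle male 2, 9 channel genes rose and 1 fell (24.4%, against 5.46% of all genes tested). In that fit 9 presynaptic genes (24.3%) and 5 GABAergic genes (23.8%) rose. The 2 postsynaptic genes that rose made up 4.17% of their list, below the 5.46% of all genes tested.

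Kcna1 (the potassium channel Kv1.1 of axons; chromosome 6, 126640397 to 126646384) ran from 2247 to 3241 (median 2662) under lithium and from 821 to 2341 (median 1772) under vehicle. The groups overlapped by the highest vehicle library, and WT vehicle male 2 was the lowest, with the others at 1559 to 2341. Kcna1 rose by 0.65 ± 0.12 (adjusted p = 0.00124), or by 0.51 without that library (adjusted p = 0.00507). Scn2a (the sodium channel Nav1.2), Kcna2 (Kv1.2) and Kcnma1 (the BK channel) rose by 0.38, 0.33 and 0.31. Syt2 (the fast calcium sensor of release at inhibitory and brainstem terminals; chromosome 1, 134646677 to 134762593) ran from 805 to 1199 (median 981) under lithium and from 461 to 822 (median 629.8) under vehicle, and rose by 0.71 ± 0.16 (adjusted p = 0.00481). Its lowest lithium library lay just below the highest vehicle library.

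The genes of the vesicle proteins Sv2a and Sv2b rose by 0.17 and 0.24. Grm5 (the metabotropic glutamate receptor mGluR5) ran from 6759 to 7387 (median 7022) under lithium and from 3342 to 6984 (median 6035) under vehicle, a log2 change of 0.29 ± 0.072 (adjusted p = 0.00797). For Grm5, 5 of 9 lithium libraries lay above every vehicle library. The scaffold gene Dlg2 (PSD-93) and the AMPA receptor subunits Gria3 and Gria4 rose by 0.22, 0.17 and 0.21. For GABA-A receptor subunits, Gabrb2 ran from 4105 to 5180.2 (median 4976) under lithium and from 1817 to 4757 (median 3912) under vehicle and rose by 0.43 ± 0.098 (adjusted p = 0.00522), while Gabra3 and Gabrb1 rose by 0.22 and 0.33. WT vehicle male 2 was the lowest vehicle library for Grm5 and Gabrb2. Leaving it out, their log2 changes were 0.19 and 0.31, both still called.

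**Figure D3:**
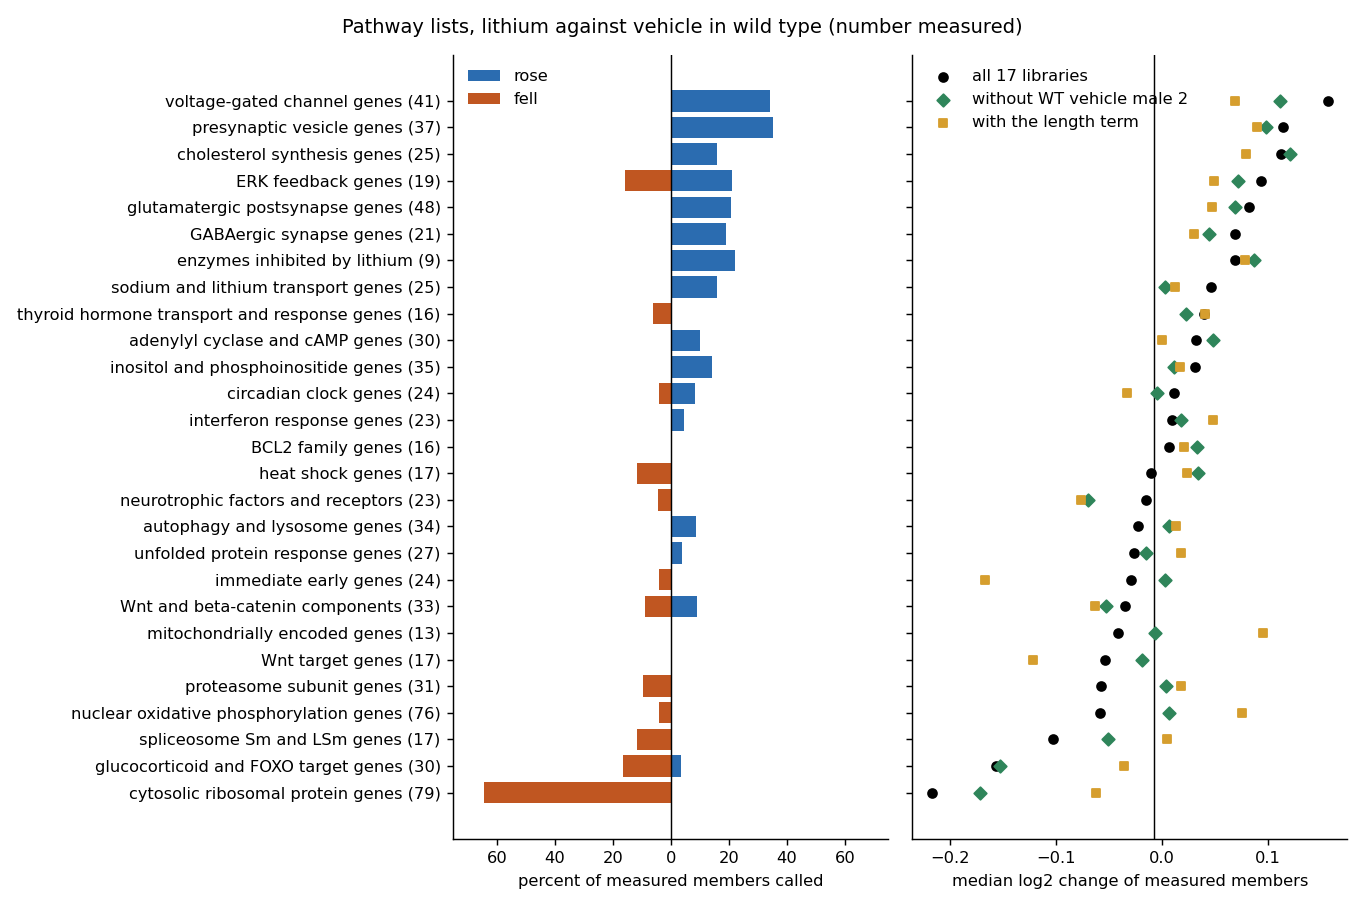
The 27 pathway lists (y axis, with the number of measured members), ordered by median change. Left, the percent of members that rose (blue) or fell (orange) at an adjusted p under 0.05. Right, the median log2 change with all libraries, without WT vehicle male 2 and with the length term, with a line at the median of all genes tested. Ribosomal protein genes have the lowest median (-0.22) and channel genes the highest (0.16) with all libraries, and both lie nearer to 0 with the length term.

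The groups that fell and rose also differed in transcript length. The median transcript length was 2446 bases for genes that rose and 908 for genes that fell, and 628.5 bases in the ribosomal protein list against 3150 in the channel list. The length trend of a library is a Spearman correlation across genes that are on no list: transcript length against how far each gene's log2 value lies from its average over the remaining libraries. The trend was 0.0466 ± 0.0747 under lithium (SD, n = 9, above zero in 7) and -0.0759 ± 0.114 under vehicle (n = 8, above zero in 1), a difference of 0.123 (two-sided exact permutation p = 0.0115). WT vehicle male 2 had -0.317. Without it the difference was 0.0881 (exact permutation p = 0.0269).

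With genes sorted by transcript length into 10 equal bins, the median log2 change went from -0.04 in the shortest bin to 0.07 in the longest. With the length trend as a term in the fit, 67 genes were called (0.402%; 41 rose, 0.246%, and 26 fell, 0.156%), 54 of them among the 1421. All 1421 kept their sign, which was likely in advance since the same libraries chose them. Their median size was 0.141 in place of 0.23, and the median SE was 0.062 in both fits. None of the ribosomal protein, presynaptic or channel genes was called with this term, and their medians were -0.06, 0.09 and 0.07. The GABAergic, inositol and cholesterol lists and the target enzymes had 0 calls as well, and of the postsynaptic genes 1 was called higher and 1 lower. With the term and without WT vehicle male 2, 296 genes were called (1.78%; 166 rose, 0.996%, and 130 fell, 0.78%), 172 of them among the 1421, with 3 ribosomal protein genes falling, 2 presynaptic genes rising and 2 channel genes falling. Lithium and the length trend moved together in these libraries, and their parts in the change of these lists cannot be told apart. The 33 genes called under every setting had a median length of 1966 bases, between the genes that rose and fell. They mix 22 rises with 11 falls and had to pass with the length term, so this length cannot show the trend's part in them.

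**Figure D4:**
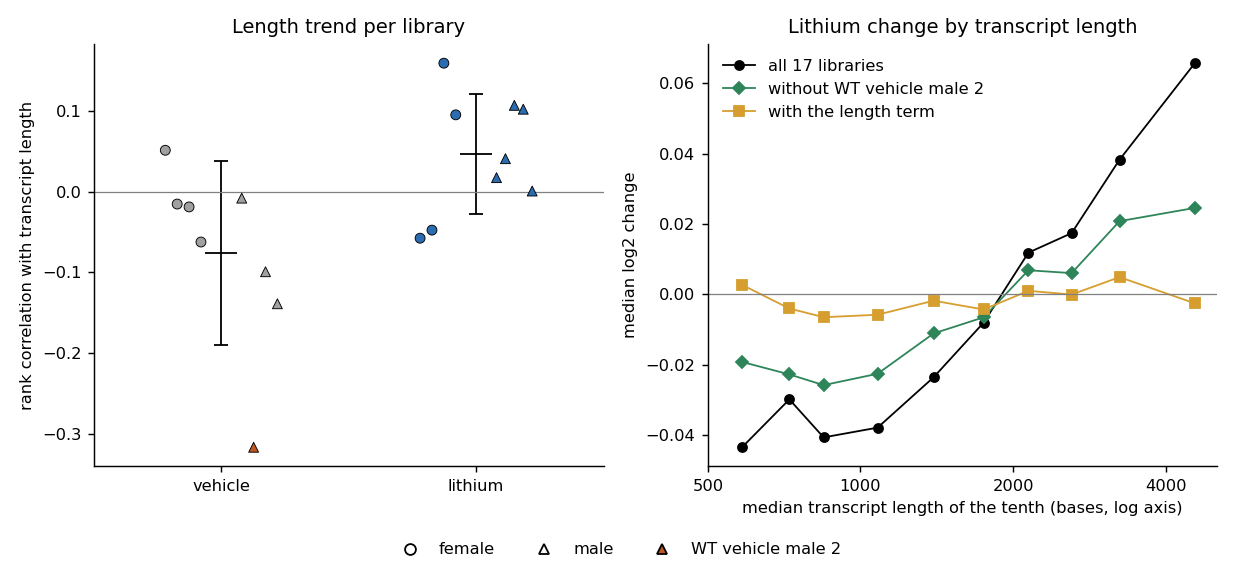
Left, the length trend (y axis, a rank correlation) of each WT library, with circles for females, triangles for males, orange for WT vehicle male 2, and the mean and SD of each group. Right, the median log2 change under lithium of 10 bins of genes by transcript length (x axis, log scale). Lithium libraries lie higher on the left, and on the right the slope from -0.04 to 0.07 is flatter without WT vehicle male 2, and all bins lie near 0 with the length term.

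A few sterol synthesis genes rose. Of 25 cholesterol synthesis genes 4 rose and none fell (16%, against 8.53% of all genes tested), with a median of 0.11. Hsd17b7, an enzyme of the later steps of the pathway, ran from 732 to 925 (median 815) under lithium and from 553 to 847 (median 699.6) under vehicle, a log2 change of 0.27 ± 0.069 (adjusted p = 0.0111). Sc5d rose by 0.24. Leaving out WT vehicle male 2, 2 of the 25 rose (8%, against 5.46% of all genes tested), with a median of 0.12. With the length term 0 of the 25 were called, where 0.402% of all genes tested were, and the median was 0.08.

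In the remaining pathway lists between 0 and 16% of the members were called, against 8.53% of all genes tested. Of 25 sodium and lithium transport genes 4 rose, among them the sodium-calcium exchangers Slc8a1 (0.42) and Slc8a2 (0.18) and the sodium-proton exchanger Slc9a7 (0.52), and 2 rose without WT vehicle male 2. Of 30 cAMP genes 3 rose, Adcy1, Adcy9 (0.39) and the phosphodiesterase Pde1a (0.30), the last not called without that library (adjusted p = 0.0543). Of 24 clock genes Clock (0.22) and Rora (0.23) rose and Nfil3 (-0.31) fell, none of which was called without it. The Nfil3 call (adjusted p = 0.0453) held in 5 of the 17 fits that left out 1 library. Of 24 immediate early genes Jund fell (-0.20), of 23 neurotrophic genes Igf2 fell (-0.35), of 17 heat shock genes Hspb1 (-0.49) and Hsf1 (-0.21) fell, and of 34 autophagy and lysosome genes 3 rose, among them Lamp2 (0.11) and Ulk2 (0.13). Sesn2 (0.26) was the 1 call among 27 unfolded protein response genes, Flywch2 (-0.42) among 16 thyroid hormone genes and Slfn9 (0.58) among 23 interferon genes. Without WT vehicle male 2, Jund, Hspb1, Ulk2 and Slfn9 were not called (adjusted p = 0.109, 0.121, 0.0575 and 0.0883), while Igf2, Hsf1, Lamp2, Sesn2 and Flywch2 were. In that fit 1 gene each of the immediate early, neurotrophic and thyroid hormone lists was called higher. Adcy1 was the 1 gene of these lists called with the length term, where 0.402% of all genes tested were called. Of 16 BCL2 family genes 0 were called by limma (1 at an unadjusted p under 0.05).

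Several of the largest changes were in genes of low level. Oprm1 (the mu opioid receptor) ran from 43.9 to 94 (median 81.4) under lithium and from 7.18 to 89.5 (median 41.9) under vehicle and rose by 0.93 ± 0.23 (adjusted p = 0.00881). The groups overlapped, and the lowest vehicle value was that of WT vehicle male 2, without which its log2 change was 0.65 (adjusted p = 0.0412). Nt5c1a, a cytosolic 5'-nucleotidase, ran from 87.9 to 128 (median 104) under lithium and from 35.3 to 91.1 (median 70.1) under vehicle and rose by 0.66 ± 0.12 (adjusted p = 0.00124). Fam205a2 (4.06) and Rpl14-ps1 (4.17) had the largest fitted rises, but both are listed at 0 in libraries of both groups and were called in 7 and 6 of the 17 fits with 1 library left out. All (100%) of the 31-base words of Fam205a2 occur in other genes, and Rpl14-ps1 is a pseudogene, so both counts are uncertain.

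Females and males were next compared. In females 0 genes were called by limma (1227 at an unadjusted p under 0.05, or 7.37%), with a smallest adjusted p of 0.0612, and 40 with 2 principal components of the residuals as terms. In males 1698 genes were called (10.2%; 1061 rose, 6.37%, and 637 fell, 3.82%), and without WT vehicle male 2, which is a male, 133 (0.798%; 89 rose, 0.534%, and 44 fell, 0.264%). The count in males was 887 without WT lithium male 3, and 1 when the fit held no other groups. The median size of the change of the 1421 genes was 0.157 in females and 0.303 in males, with median SEs of 0.116 and 0.11. The difference between the sexes itself gave 0 calls (1326 genes at an unadjusted p under 0.05, or 7.96%; smallest adjusted p = 0.614), so a different response of the sexes was not shown. With the 2 principal components it gave 226. They were taken from the residuals of the same fit, so they left the log2 changes as they were and lowered the remaining spread. Higher counts follow from that, and no difference between the sexes is read from the 226.

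Pnck had a log2 change of -0.43 in females and -0.55 in males (adjusted p in males = 0.00012). Hpca had -0.27 and -0.45, and Frat1 -0.55 and -0.45. The genes with the smallest adjusted p in males that rose included Ankrd42, an ankyrin repeat protein (0.56 in males and 0.13 in females), Mta3 (0.42 and 0.17), the RNA helicase Dhx9 (0.38 and 0.09) and the myosin motor Myo5a (0.58 and 0.24).

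The same drug was set against vehicle in Shank2 heterozygotes, in libraries separate from those of the WT comparison. In HT 148 genes were called (0.888%; 31 rose, 0.186%, and 117 fell, 0.702%). A total of 76 genes were called in both genotypes, all in the same direction (15 higher and 61 lower), which is 5.35% of the WT calls and 51.4% of the HT calls. Of the 1421 WT calls, 89.2% had the same sign in HT, against 65.9% of all genes tested. The median HT change was 0.07 for genes that rose in WT and -0.11 for genes that fell, where the WT medians were 0.23 and -0.23. The difference of the lithium change between the genotypes gave 0 calls by limma (1218 genes at an unadjusted p under 0.05, or 7.31%; smallest adjusted p = 0.331). It gave 2 calls without WT vehicle male 2.

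Pnck ran from 1201 to 1736 (median 1351) in HT lithium and from 1662 to 1913 (median 1815) in HT vehicle libraries, a log2 change of -0.39 (adjusted p = 6.47e-05). The HT ranges overlapped. Mest ran from 1324 to 1773 (median 1611) in HT lithium and from 1099 to 1376 (median 1240.0) in HT vehicle libraries, a log2 change of 0.34 (adjusted p = 0.0162). Ctnnb1 ran from 17545 to 22626 (median 18668) in HT lithium and from 20300.1 to 23057 (median 21902) in HT vehicle libraries, and its log2 changes were -0.22 in WT and -0.21 in HT. Frat1 fell in both (-0.50 in WT and -0.39 in HT, adjusted p in HT = 0.025), while Frat2 was called in WT and had -0.17 in HT (adjusted p = 0.313). That difference between the genotypes was not called for Frat2 (adjusted p = 0.671).

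Also called in both were Hpca (-0.20 in HT), Fam173a (-0.24), Ddit4 (-0.40), Depp1 (-0.96), Mapk3 (-0.23), Spry4 (0.38) and Psme1, a proteasome activator subunit (-0.31 in WT and -0.20 in HT). The shared calls held 18 ribosomal protein genes, among them Rpl17, Rpl13a, Rpl9 and Rps14. In HT 24 of the 79 ribosomal protein genes fell and none rose, with a median of -0.17, where 0.702% of all genes tested fell. In HT the presynaptic, postsynaptic, GABAergic and channel lists had 0 calls by limma (4, 5, 1 and 6 genes at an unadjusted p under 0.05), with medians of 0.02 (presynaptic), 0.01 (postsynaptic), 0.02 (GABAergic) and 0.04 (channels). Whether these lists differ between the genotypes was not tested.

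**Figure D5:**
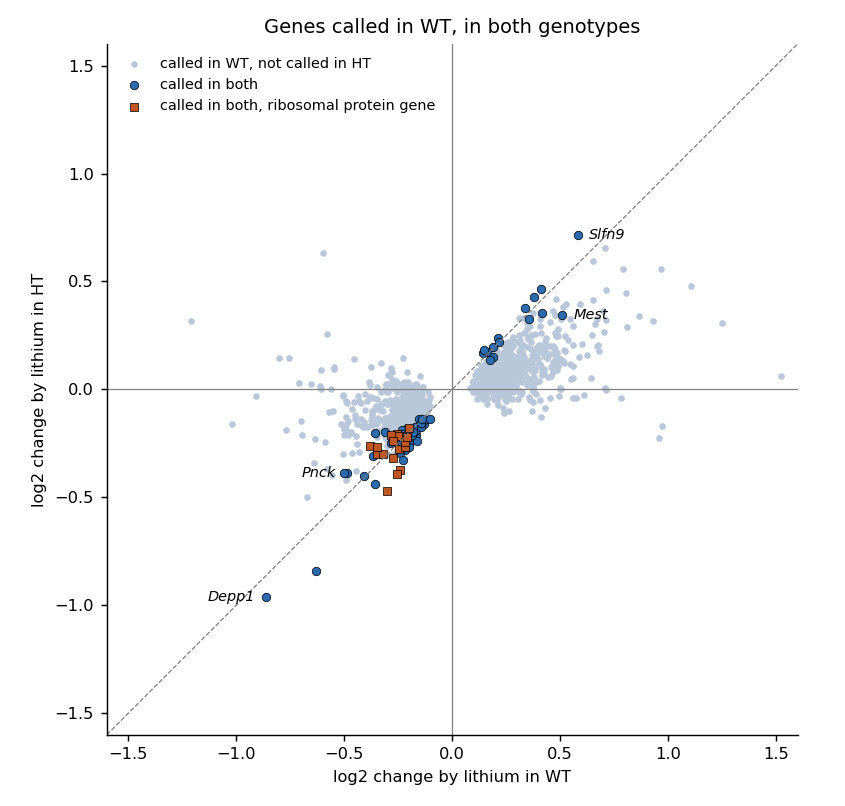
Log2 change under lithium in WT (x axis) and in HT (y axis) of the genes called in WT. Blue circles and orange squares are the 76 genes also called in HT, squares being the 18 ribosomal protein genes, pale points are called in WT alone, the dashed line marks equal change, and 4 genes lie outside the axis limit of 1.6. All 76 have the same sign in both genotypes and lie in the lower left or upper right.

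WT lithium was also compared with WT mice given fluoxetine, a serotonin reuptake inhibitor, through the same route. The log2 differences of this comparison do not use the vehicle libraries. Its p-values do, through the spread shared by all 57 libraries. Lithium against fluoxetine gave 37 calls (0.222%; 22 higher under lithium, 0.132%, and 15 lower, 0.09%), against 9.99% of genes at an unadjusted p under 0.05, and 28 of them were also called against vehicle, all in the same direction. Both contrasts use the same lithium libraries, so they are not independent. The count fell to 4 without WT lithium female 4 and to 5 without lithium male 3. It was 13, 17, 20 and 23 without WT fluoxetine male 2, female 3, female 2 and female 5, and 22 and 24 without lithium female 2 and male 2. With the spread taken from the WT lithium and WT fluoxetine libraries alone, the count was 362, and all 37 calls were among them.

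Pnck ran from 1363 to 1972 (median 1538) under fluoxetine and was lower under lithium (log2 difference -0.36, adjusted p = 0.000284). Hpca ran from 10235 to 13622 (median 11602), above every lithium library, a log2 difference of -0.34 (adjusted p = 0.000284). Frat1 ran from 208 to 350.3 (median 288) and Frat2 from 171 to 232 (median 209) under fluoxetine, log2 differences of -0.47 and -0.36 (adjusted p = 0.0169 and 0.0268). Tmem91 (-0.36), Ahi1 (-0.24), Gid4, a ubiquitin ligase subunit (-0.20), and Cdk19, a kinase of the Mediator complex (-0.20), were lower too. Cdkl2 (0.28), Nt5c1a (0.57), Sowahb (0.39) and Spry4 (0.40) were higher under lithium. Not all genes called against vehicle differed between the drugs. Mta3 had a log2 change of 0.27 under fluoxetine against vehicle, and a lithium-fluoxetine difference of 0.02 (adjusted p = 0.922). Zbtb16 ran from 739 to 1919 (median 1557) under fluoxetine.

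Of the 25 cholesterol synthesis genes 6 were higher under lithium than under fluoxetine and none was lower, against 0.132% of all genes higher, with a median difference of 0.25. The 6 included Nsdhl (0.32) and Acat2 (0.26), which makes acetoacetyl-CoA. Against vehicle, the list's median was 0.11 under lithium and -0.14 under fluoxetine, comparisons that share the vehicle libraries, and fluoxetine against vehicle called 140 genes (0.84%). In the ribosomal protein, presynaptic, postsynaptic, GABAergic and channel lists 0 genes were called by limma between lithium and fluoxetine (5, 10, 4, 0 and 3 at an unadjusted p under 0.05), with medians from -0.03 to 0.03. For ribosomal protein genes the median change against the shared vehicle libraries was -0.22 under lithium and -0.18 under fluoxetine, and for channel genes 0.16 and 0.13. Genes called higher under lithium in WT had a median fluoxetine change against vehicle of 0.14, where lithium had 0.23. Genes called lower had -0.13, where lithium had -0.23. These genes were chosen with the same vehicle libraries, so the changes under the 2 drugs are not independent.

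Markers of other cells and of neighbouring tissue were read beside these results. In bulk tissue, fewer cells of a type and less RNA per cell cannot be told apart. Of 20 interneuron, 20 myelinating oligodendrocyte and 20 endothelial and mural markers, 0 were called by limma (3, 1 and 3 at an unadjusted p under 0.05), and of 23 excitatory neuron markers 1 rose (Ntsr1, of layer 6, 0.36). Of 20 astrocyte markers S100b (-0.22) and Mlc1 (-0.17) fell, of 12 oligodendrocyte precursor markers Olig2 fell (-0.35) and of 20 microglia markers Tyrobp fell (-0.28). None of these 4 was called without WT vehicle male 2. The shares called were 4.35% (excitatory neuron), 10% (astrocyte), 8.33% (precursor) and 5% (microglia), near or below the 8.53% of all genes tested. The myelinating oligodendrocyte markers had a median log2 change of 0.24 in females, with 19 of 20 above zero, and of -0.26 in males, with 1 of 20 above zero, and 0 were called by limma in either sex (0 at an unadjusted p under 0.05 in both). Their summed value ran from 115816 to 166314 under lithium and from 84452 to 220274 under vehicle, highest in WT vehicle male 2. Over both sexes their median log2 change was -0.03, and 0.03 without that library. The part of this list in the results by sex was not tested.

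Markers of tissue next to the cortex had a wider range over the vehicle libraries. The summed value of striatal projection neuron markers ran from 24233 to 35725 under lithium and from 23690 to 65398 under vehicle, highest in WT vehicle male 1, and that of olfactory bulb markers from 3241 to 8305 and from 3068 to 24700, highest in WT vehicle female 1. The medians of the log2 changes were -0.40 for 19 striatal and -0.45 for 16 olfactory bulb markers, with 0 called (1 at an unadjusted p under 0.05) and 1 called (Gng13, -0.36). Of 16 leptomeningeal fibroblast markers 14 had a negative change, with a median of -0.13, or -0.23 without WT vehicle male 2, where 15 were negative. Their summed value ran from 21654 to 31443 under lithium and from 24226 to 42997 under vehicle, highest in WT vehicle female 3. The 1 called (6.25%, as for olfactory bulb markers, against 8.53% of all genes tested) was Igf2, which is also on the neurotrophic list above. Red cell markers had a median of -0.52 with 0 of 6 called (4 at an unadjusted p under 0.05), and choroid plexus and ependymal markers one of -0.20 with 0 of 9 called (1 at an unadjusted p under 0.05). Without WT vehicle male 1 the count over all genes was 1979, and without WT vehicle female 1 it was 1212. The part of neighbouring tissue in single results was not tested.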

How the data were processed

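RNA of mouse prefrontal cortex was sequenced after poly(A) selection with a stranded kit, per the labels' protocols. The authors deposited 1 table of normalized counts, a signal with fractional values, for 51456 gene identifiers in 57 libraries. Salmon 0.11.2, DESeq2 1.19.11, R 3.6.0 and the build GRCm38 are named in the submitters' processing notes. Annotation release, filtering and strand handling: not given in the sources used here. Between 7.45 and 42.6% of low values were whole multiples of 1 read within a tolerance of 0.02, so reads were not recovered and no count test was run. Values were taken as log2(value + 1) for the 16659 genes with a mean of at least 10, and fitted with limma 3.58.1 in R 4.3.3 (trend and robust options) over 12 groups of genotype, drug and sex and all 57 libraries, which share 1 estimate of the spread. The change reported averages the changes of the 2 sexes with equal weight. Adjusted p-values follow Benjamini and Hochberg over these 16659 genes, and errors after ± are standard errors unless marked SD.

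Named genes were Shank2, the enzymes inhibited by lithium, the 10 largest rises and falls, the 5 rises and 5 falls of smallest adjusted p in each comparison, up to 4 called members of each list, and up to 10 genes called in both genotypes, with predicted genes left out. Some genes that this rule takes are not reported here. Members and lists were chosen with earlier results of these data known. The fitting script was tested on simulated data. Gene positions are from GENCODE vM21 on GRCm38, and sequences from RefSeq. The alternatives were other pseudocounts, filters and scalings, library weights, a replicate block, principal components, a term for transcript length and each library left out. The fit with the length term and without WT vehicle male 2 was added after seeing the data.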

Additional observations from a re-analysis of the deposited data

Results flagged for a closer look

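In 70 sets of values examined, 9 held a library whose gap to its nearest neighbour was a large share of the group's range. Chance alone gives such a gap in about 1 of 20 groups, and no cause was tested. Under lithium, Frat2 was highest in WT lithium male 1 (201.9, next 170.5), Cited2 in WT lithium female 3 (823, next 717) and Mapk3 in WT lithium male 4 (4360.4, next 3925). Under vehicle, WT vehicle male 2 was the highest library for Rpl17 (5633, next 4571) and Rpl13a (7665, next 5602), and the lowest for Grm5 (3342, next 5298). It also had the fewest genes above zero (21509, next 22451) and the lowest median correlation with the other libraries (0.968, next 0.977). The total of normalized values was lowest in WT vehicle female 1 (30.4 M, next 31.8 M).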

How the results depend on the processing

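The count of genes called in WT depended most on how the spread and the length trend entered the fit. Fitted on the compared groups alone it was 204, with 2 principal components 2768, with the length term 67 and with that term and no WT vehicle male 2 296. The principal components were of the fit's own residuals, which lowers the spread, and all 1421 calls were kept with them. Pseudocounts, filters, scalings, library weights and plain limma gave 1166 to 1529. Leaving out 1 library gave 796 to 1979, with the lowest counts without WT lithium female 4 (796), vehicle female 3 (893), vehicle male 2 (909), lithium male 3 (913) and lithium female 3 (937). In females the count was 1 with quantile normalization, 1 with the length term, 1 with that term and no WT vehicle male 2, and 40 with 2 principal components, and 0 to 1 with a library left out. In males it was 1 with only the groups compared, 754 with library weights, 3078 with 2 principal components, 2 with the length term, 2 with that term and no WT vehicle male 2, and 133 to 2504 with a library left out, of which 887 was without WT lithium male 3. For the difference between the sexes, 2 principal components gave 226 and leaving out a library 0 to 0. For the difference between genotypes, library weights gave 1, 2 principal components 1, the length term without WT vehicle male 2 gave 2, and leaving out a library 0 to 2 (1 without HT lithium female 4 and 2 without WT vehicle male 2). Against fluoxetine, counts were 362 with only the groups compared, 23 with no trend and no robust option, 533 with library weights, 297 with 2 principal components, 85 with the length term and 4 to 50 with a library left out, lowest without WT lithium female 4 (4) and lithium male 3 (5). The difference in length trend was 0.0881 to 0.141 with a library left out.

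Lithium and vehicle libraries with the same replicate number in the sample titles did not deviate together. Over 8 pairs the correlations ran from -0.214 to 0.0717, 0 were over 0.1, and 1 library correlated best with its own number. For some vehicle females the title number differs from that in the library name, and pairing by library name was not tested. With the replicate block, which uses the title numbers too, 1132 genes were called in WT, 1311 in males and 20 against fluoxetine.

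Among target enzymes that were not called, signs changed for Gsk3a (0.0129 with library weights, 0.068 with the length term, 0.0775 with that term and no WT vehicle male 2, and -0.0458 to 0.0372 with a library left out), Impa1 (-0.00561 to 0.0643 with a library left out), Impa2 (-0.0197 to 0.32 with a library left out) and Pgm1 (0.0177 with the length term, 0.017 with that term and no WT vehicle male 2, and -0.0315 to 0.00484 with a library left out). Over the named genes' other fits, 2780 kept the direction and the side of the threshold, 584 kept the direction and were no longer called, and 7 became called. The cause of these changes was not tested. Depth enters only through the deposited normalization.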

Other observations

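Other genes that passed under every setting, chosen here after their values were seen, included neuronal surface and signalling genes. Kcnip2, a subunit of A-type potassium channels, ran from 2274 to 3021 under lithium and from 3121 to 3613 under vehicle without overlap, a log2 change of -0.33 (limma adjusted p = 0.000497). Lgi1, a secreted synaptic protein mutated in an inherited epilepsy, ran from 5304 to 5880.3 under lithium and from 3963 to 5478 under vehicle, a rise of 0.24 (adjusted p = 0.000929). Lrfn2, a synaptic adhesion protein, rose by 0.35 (adjusted p = 0.00981), and Htr5a, a serotonin receptor, by 0.26 (adjusted p = 0.00472). Tuba4a, an alpha-tubulin, rose by 0.32 (adjusted p = 0.00766) and was also higher than under fluoxetine, by 0.34 (adjusted p = 0.0218). Mbtps2, the site-2 protease that releases sterol-regulated transcription factors, ran from 945 to 1159.9 under lithium and from 597 to 939.5 under vehicle, a rise of 0.37 (adjusted p = 0.000300).

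Of genes for RNA processing in the same set, the splicing kinase gene Clk1 fell by 0.31 (adjusted p = 0.00899) and Hnrnph3 by 0.31 (adjusted p = 0.00125). In HT, log2 changes were -0.09 for Kcnip2, 0.12 for Lgi1, 0.03 for Lrfn2, 0.01 for Htr5a, 0.07 for Tuba4a, 0.08 for Mbtps2, -0.05 for Clk1 and -0.18 for Hnrnph3, none of them called there.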
